A study of Mus musculus with 10 samples.

Results

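The CCN and YAP target genes *Ctgf*, *Cyr61*, *Wisp1*, *Nov* and *Amotl2* were followed in single endothelial cells (ECs) of mouse long bone. They were chosen by name, with earlier results of these data known, and are 5 of the 26504 genes in the count tables. Their UMI counts were compared between 4 EC classes, 3 ages and 2 treatments. The libraries came from GFP+ tdTomato+ cells sorted from femur and tibia of *Cdh5-mTnG* reporter mice on a C57BL/6 background, in which both fluorescent proteins mark cells by the endothelial *Cdh5* promoter, after haematopoietic cells had been depleted. Each of 5 groups gave 2 libraries: juvenile mice of 3 weeks (males and females), adult females of 12 weeks, aged females of 75 weeks, and females of 12 weeks treated with PTH (parathyroid hormone, an agent that builds bone) or with alendronate (a bisphosphonate that slows bone resorption). The animals of a group were pooled and each experiment was done once, so p-values measure the spread between 2 libraries of 1 pool and not the variation between mice. The untreated 12-week group served as reference for all 4 contrasts, which therefore share its 2 libraries.

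*Ctgf* (CCN2), *Cyr61* (CCN1), *Nov* (CCN3) and *Wisp1* (CCN4) encode secreted matricellular proteins of the CCN family, which bind integrins, heparan sulphate proteoglycans and matrix and so modify how cells attach, migrate and answer to growth factors. *Ctgf*, *Cyr61* and *Amotl2* are classical targets of YAP and TAZ, co-activators that enter the nucleus when the Hippo kinases are inactive and drive transcription through the TEAD factors, for instance in endothelium under altered flow, stretch or spreading. *Wisp1* was described as a WNT-induced gene, NOV is a CCN protein known from arterial endothelium, and AMOTL2 is an angiomotin family member that binds YAP and links junctions to actin. *Cyr61* is also known as an immediate early gene, which cells induce within minutes of handling or growth factor exposure.

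On the mm10 build (GENCODE vM21, GRCm38), *Ctgf* lies at chr10:24595442-24598683 on the plus strand, *Cyr61* at chr3:145646976-145649981 on the minus strand, *Wisp1* at chr15:66891320-66923201 and *Nov* at chr15:54745702-54754039, both on the plus strand, and *Amotl2* at chr9:102716672-102733418 on the plus strand. Only *Ctgf* shares exon sequence with another gene, *Gm15270* on the opposite strand. That gene held 938 UMIs in all ECs against 18443 of *Ctgf*, and the strand setting of the counting is not given in the sources used here.

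The promoters of *Cyr61* and *Amotl2* are shown because the promoter reference used here held no entry for *Ctgf*, *Wisp1* and *Nov*, which were therefore not analysed. Both promoters hold the core TEAD motif, through which YAP and TAZ reach DNA. The 250 bases upstream of the RefSeq start of *Cyr61* (GRCm38.p6, chr3:145649986-145650235, minus strand) and 30 bases of the upstream stretch of *Amotl2* (chr9:102717727-102717756, plus strand) are printed 5′ to 3′, with the motif CATTCC in capitals. The upstream window of *Amotl2* overlaps an exon of that gene in GENCODE, so only the bases around the motif are shown.
Cyr61: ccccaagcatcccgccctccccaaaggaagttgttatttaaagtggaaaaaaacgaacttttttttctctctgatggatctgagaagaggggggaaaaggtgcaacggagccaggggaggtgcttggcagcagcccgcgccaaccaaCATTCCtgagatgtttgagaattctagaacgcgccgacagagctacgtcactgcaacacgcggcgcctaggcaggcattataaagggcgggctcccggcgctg
Amotl2: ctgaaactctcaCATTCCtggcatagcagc
The motif starts at position -103 from the RefSeq start of *Cyr61* and at -65 from that of *Amotl2*. The RefSeq start used for *Amotl2* lies inside the GENCODE span given above. CATTCC or its reverse complement GGAATG occurs in 4153 of 32851 promoter windows of the same length, or 12.64%. The AP-1 motif TGANTCA, which reads alike on both strands and is found in 6.749% of the windows, has no match in the window of either gene.

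Of 47466 barcodes, 46283 had 500 to 6000 genes and under 25% mitochondrial UMIs, and 45070 of these carried at least 2 UMIs of *Cdh5*, *Pecam1*, *Egfl7* and *Kdr* together and were taken as ECs. A cell received a class when it had at least 2 UMIs of the markers of that class and these were over 50% of the UMIs of the 6 class markers. This gave 18338 sinusoidal (*Stab2*), 5108 arterial (*Gja4*), 10773 metaphyseal (*Ramp3*, *Aplnr*) and 1608 type R (*Timp4*, *Aqp7*; the remodelling capillaries) cells, and left 9243 without a class. The markers set a cut and not a natural border: 12.68%, 21.91%, 20.51% and 28.11% of the cells of these classes, in the same order, had only 2 UMIs of their class markers or at most 60% of the marker UMIs for their class. Of the metaphyseal markers, the authors report *Aplnr* in type R ECs too. Here it was 2.96 ± 0.25 higher in type R than in arterial ECs (edgeR, adjusted p = 4.26e-12). Type R cells with much *Aplnr* could thus be placed as metaphyseal or left without a class. Whether the content of a class changed between groups was not tested. Genes that the cut did not use followed the names, by means over the libraries of all groups. *Gpr126* stood at 343 CPM in sinusoidal and at most 19.4 in the other classes, *Bmx* at 115 in arterial and at most 10.2 elsewhere, *Piezo2* at 104 in metaphyseal and at most 12.9 elsewhere, and *C1qtnf9* at 1090 in type R and at most 74.4 elsewhere.

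The libraries held 10653583 to 28419323 UMIs, with medians of 3116 to 5007 UMIs per EC. The 2 aged libraries stand apart from the others: they had the deepest cells, they alone held UMIs of the 276 genes whose names begin with U (left out here), and they shared 3 to 4 barcodes with any other library, where the other pairs shared 10 to 88. Their median share of mitochondrial UMIs per EC was 2.37% and 2.49%, against 1.16% to 1.43% in the other libraries. Differences between 75 and 12 weeks therefore cannot be told apart from how the aged libraries were made. The juvenile group alone held males, so sex and age cannot be told apart there. PTH replicate 1 had 14 type R cells, fewer than the 20 required for a sum, so type R cells after PTH rest on 1 library. Levels are UMI counts relative to the total of the sum (CPM) of the summed cells of a class and library, scaled by TMM over all sums, and the sums were tested in edgeR by quasi-likelihood.

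Among the 4 classes, which leave out the 9243 ECs without a class, *Ctgf* was highest in sinusoidal, *Wisp1* in metaphyseal and *Nov* in arterial ECs, whereas *Cyr61* and, by the mean over all groups, *Amotl2* were highest in type R ECs. In the plot of levels by class, the classes separate by gene and not by a common order.

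**Figure D1:**
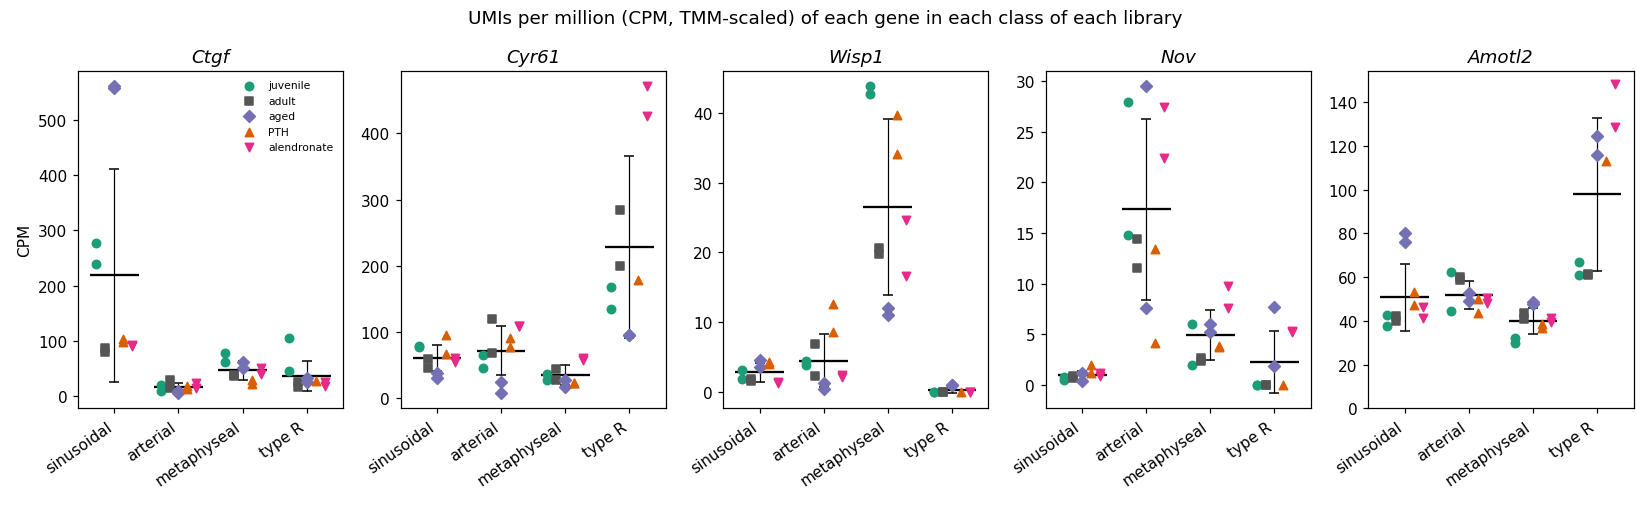
Level of each gene (CPM, linear axis with its own scale per gene) in the 4 endothelial classes. Each symbol is 1 class in 1 library, with colour and shape for the group, and the horizontal line and bar give the mean and SD over libraries; *Ctgf* ran from 80.4 to 561 CPM in sinusoidal and from 5.82 to 29.04 in arterial sums, and *Wisp1* was at 0 in 7 of the 9 type R sums.

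*Ctgf* was 219 ± 192 CPM (SD, n = 10 libraries) in sinusoidal ECs, with a lowest value of 80.4, a median of 101 and a highest of 561. Metaphyseal ECs had 47.1 ± 17.2 CPM (22.1 to 79.1), type R ECs 35.9 ± 27.3 (16.6 to 105; n = 9) and arterial ECs 16.0 ± 7.09 (5.82 to 29.04). Every sinusoidal sum lay above every metaphyseal and arterial one, and above the type R sum of its own library. The level in arterial ECs was 0.094 times that in sinusoidal ECs (log2 fold change -3.41 ± 0.30 SE, adjusted p = 1.37e-12). In metaphyseal ECs the log2 fold change against sinusoidal ECs was -1.97 ± 0.23 (adjusted p = 4.58e-09) and in type R ECs -2.93 ± 0.41 (adjusted p = 1.5e-07). Metaphyseal exceeded arterial ECs by 1.45 ± 0.32 (adjusted p = 0.000247), while 2 pairs of neighbours in the order did not pass: type R against metaphyseal gave -0.96 (95% interval -1.89 to -0.034, unadjusted p = 0.0426, adjusted p = 0.0919) and type R against arterial 0.48 (-0.59 to 1.56, adjusted p = 0.562). The first of these passed with no filter on low counts, with cells thinned to 1000 UMIs and with likely doublets left out. The second passed with wide marker panels.

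*Cyr61* was 228 ± 138 CPM in type R ECs (lowest 95.4, median 178, highest 472; n = 9), against 71.5 ± 37.4 in arterial, 60.5 ± 19.96 in sinusoidal and 34.3 ± 15.1 in metaphyseal ECs (n = 10 each). In all 9 libraries with a type R sum that sum was the highest, and across libraries it overlapped with arterial and sinusoidal but not with metaphyseal sums. Type R ECs had 3.88 times the sinusoidal level (log2 fold change 1.956 ± 0.23, adjusted p = 5.04e-09) and 7.15 times the metaphyseal level (2.84 ± 0.24, adjusted p = 2.65e-12). Against arterial ECs the log2 fold change was 1.78 ± 0.24 (adjusted p = 1.48e-07), and it fell to 0.62 (adjusted p = 0.455) when the cells above the median share of immediate early UMIs in each library were left out. Over all groups arterial and sinusoidal ECs did not differ beyond their spread (0.17, 95% interval -0.24 to 0.58, adjusted p = 0.46), but the groups went opposite ways. Arterial sums were higher in adult (67.4 and 119.5 against 45.3 and 58.5 CPM) and alendronate libraries (108.8 and 108.6 against 54.8 and 60.6). They were lower in aged (7.38 and 24.1 against 37.6 and 30.1) and juvenile libraries (65.3 and 45.7 against 77.2 and 78.4), and the 2 PTH libraries split. Metaphyseal ECs were lower than arterial ones by -1.06 ± 0.21 (adjusted p = 8.5e-05). The last call held in 16 of 21 alternatives, and its size fell under 1 without PTH replicate 1 (-0.99) or 2 (-0.91), by DESeq2 (-0.92), with thinned cells (-0.83) and with the 6 untreated libraries only (-0.78).

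Markers of mural cells, the contractile cells around vessels, differed between the classes too. Of 5 tested, 3 were higher and 1 lower in type R than in sinusoidal ECs and 4 were higher and 1 lower in arterial ECs, with *Rgs5* at 5.09 ± 0.56 in type R (adjusted p = 7.29e-10) and 5.17 ± 0.40 in arterial ECs (6.78e-14), *Acta2* at 4.96 ± 0.44 in arterial ECs (2.85e-12), and *Kcnj8* at -5.08 in type R and -4.58 in arterial ECs. Between type R and arterial ECs edgeR called 0 of 5 (0 at an unadjusted p under 0.05). Of all genes 22.4%, 19.6% and 10.8% were called in these 3 comparisons. The part of the mural RNA in the class differences of *Cyr61* and *Amotl2* was not tested.

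*Amotl2* followed the same class order with a narrower range. Type R ECs had 97.9 ± 35.03 CPM (lowest 60.8, median 113, highest 148; n = 9), arterial 52.0 ± 6.48, sinusoidal 50.7 ± 15.2 and metaphyseal ECs 39.9 ± 6.01 (n = 10 each). The type R sums lay above all metaphyseal sums, but overlapped with arterial and sinusoidal ones. The type R level was 2.14 times the sinusoidal (log2 fold change 1.098 ± 0.13, adjusted p = 6.99e-09) and 2.66 times the metaphyseal level (1.41 ± 0.14, adjusted p = 8.26e-11), and exceeded the arterial one by 1.06 ± 0.14 (adjusted p = 1.19e-07). The first and the third of these held in 16 of 21 alternatives each. They fell under a log2 fold change of 1 with the 6 untreated libraries only (0.79 and 0.73), with wide marker panels (0.79 and 0.69), with cells thinned to 1000 UMIs (0.99 and 0.93) and without alendronate replicate 1 (0.95 and 0.93), the first also without the cells richer in immediate early UMIs (0.82) and the third with the stricter class rule (0.995). In the adult libraries type R ECs had 61.3 and 60.8 CPM, close to the 60.3 and 58.8 of arterial ECs, and at 1000 UMIs 5.94% and 3.41% of type R against 5.70% and 6.94% of arterial cells carried *Amotl2*. Over all groups arterial and sinusoidal ECs differed by 0.04 (95% interval -0.18 to 0.26, adjusted p = 0.771). In the adult libraries arterial sums were higher (60.3 and 58.8 against 42.4 and 39.8 CPM), and in the aged ones lower (48.9 and 52.6 against 80.2 and 76.2). Arterial sums were also higher in juvenile and alendronate libraries, and the 2 PTH libraries split.

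*Wisp1* reached 26.5 ± 12.6 CPM in metaphyseal ECs (lowest 11.03, median 22.6, highest 43.9), against 4.45 ± 3.82 in arterial and 2.74 ± 1.30 in sinusoidal ECs (n = 10 each). The metaphyseal sum was the highest of every library. It was 10.3 times the sinusoidal level (log2 fold change 3.36 ± 0.20, adjusted p = 1.18e-16), and 35 of the 11657 genes tested, or 0.3%, rose at least as far in that comparison. Against arterial ECs the log2 fold change was 2.57 ± 0.24 (adjusted p = 1.83e-11). The 1594 type R cells tested held 2 UMIs, 1 in each aged library, against 1436 UMIs in the metaphyseal cells. By plain totals this is 0.447 CPM (95% Poisson interval 0.0542 to 1.62) against 29.7, a ratio of 66.5 (18.4 to 550; counting error only), and the difference passed the test (adjusted p = 7.82e-08). The call against arterial ECs (-2.77 ± 1.05, adjusted p = 0.0426) rests on the same 2 UMIs. It held in 10 of 20 alternatives and was lost without either adult, PTH or alendronate library or juvenile replicate 1 (adjusted p = 0.0571 to 0.111).

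*Nov* was 17.3 ± 8.95 CPM in arterial ECs (lowest 4.18, median 14.6, highest 29.5; n = 10), 4.91 ± 2.49 in metaphyseal and 0.976 ± 0.448 in sinusoidal ECs. Every arterial sum was above every sinusoidal one, and above the metaphyseal sum of its own library. The ECs without a class, whose *Nov* was taken as plain CPM and not compared by a test, reached 34.2 and 63.9 CPM in the aged libraries. The level in arterial ECs was 16.9 times the sinusoidal level (log2 fold change 4.08 ± 0.26, adjusted p = 1.6e-16), and metaphyseal ECs lay between, 2.31 ± 0.27 above sinusoidal (adjusted p = 3.63e-09) and -1.77 ± 0.22 from arterial ECs (adjusted p = 1.08e-08). Type R ECs held 18 UMIs, all in aged and alendronate libraries, which is 4.03 CPM by plain totals (95% Poisson interval 2.39 to 6.36). The arterial difference from type R ECs (-2.29 ± 0.40, adjusted p = 1.84e-05) became 0.26 (adjusted p = 0.446) when the classes were set by wider marker panels. The type R difference from sinusoidal ECs (1.80 ± 0.55, adjusted p = 0.00601) held in 16 of 20 alternatives. It did not pass without aged replicate 2 (1.22, adjusted p = 0.0984), without both aged libraries (1.36, 0.105) or with likely doublets left out (1.25, 0.159). Nor did it pass without the cells richer in immediate early UMIs (1.65, 0.333). In aged replicate 2 type R ECs had 7.72 CPM and arterial ECs 7.63.

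A comparison of 2 classes was called at an adjusted p under 0.05 and an absolute log2 fold change over 1. The members were chosen with earlier results of these data known, so counts of members called beside all genes are a description and not a test of the group. Of the 5 members, 2 were called between arterial and sinusoidal ECs, where 19.6% of all 11657 genes were called. Between metaphyseal and sinusoidal ECs 3 were called (all genes 11.6%), between type R and sinusoidal ECs 4 (22.4%), between metaphyseal and arterial ECs 4 (11.7%), between type R and arterial ECs 4 (10.8%) and between type R and metaphyseal ECs 3 (15.6%). The median log2 fold change of the 5 ran from -0.51 for type R against metaphyseal to 1.098 for type R against sinusoidal ECs, beside medians over all genes of -0.06 to 0.01 in the 6 comparisons.

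The classes also differed in how many cells carried a UMI. To compare cells at equal depth, each cell with at least 1000 UMIs was thinned to 1000, and 1763 ECs with fewer were left out. *Ctgf* was then found in 12.9% ± 8.90 (SD over libraries) of sinusoidal ECs and in 1.51% to 3.54% of the other classes, *Cyr61* in 15.5% ± 7.32 of type R ECs and 2.88% to 5.36% of the others, *Amotl2* in 8.47% ± 4.96 of type R and 4.06% to 5.01% of the others, *Wisp1* in 2.40% ± 1.33 of metaphyseal and at most 0.345% of the others, and *Nov* in 1.58% ± 0.595 of arterial and at most 0.44% of the others. Without thinning, the leading classes had 26.4%, 26.4%, 21.8%, 9.52% and 3.80%. Haematopoietic cells of the same libraries, which should lack these transcripts, measured the background: 2 of 510 carried *Cyr61* (0.392%), 1 *Amotl2* (0.196%) and 0 *Ctgf*, *Wisp1* or *Nov*, which allows a share of up to 0.588%. Their median depth before thinning was 3256 UMIs, against 3949.5 in sinusoidal, 3693.5 in arterial, 3810 in metaphyseal and 2363.5 in type R ECs. In the other classes the mean shares of *Wisp1* and *Nov* lay under this limit, but single libraries exceeded it, up to 1.54% for *Wisp1* in arterial and 0.869% for *Nov* in metaphyseal ECs. The ECs without a class were not under it: 2.01% ± 1.13 carried *Nov*, above the arterial share, and 0.6% *Wisp1*. The leading class was the same for all 5 members when cells were thinned to 2000 UMIs.

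**Figure D2:**
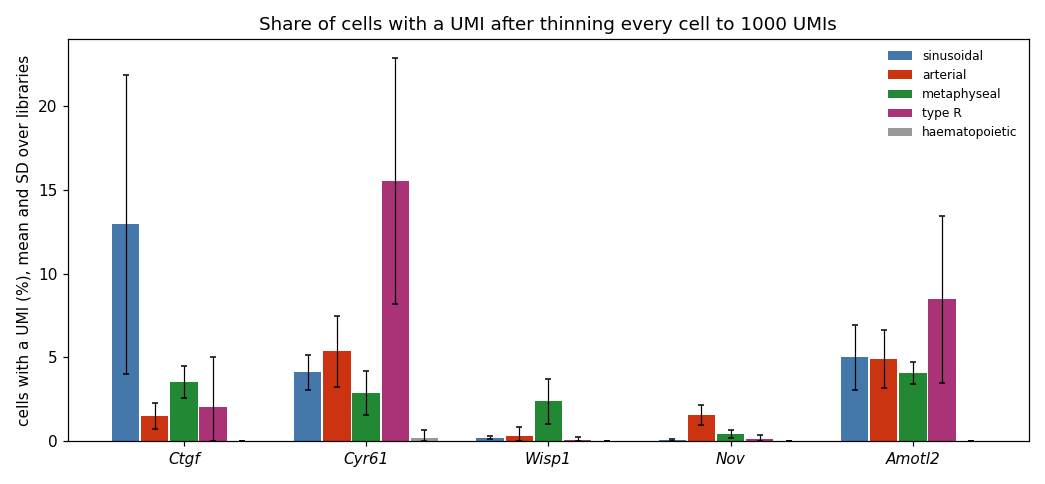
Percent of cells with a UMI of each gene after thinning to 1000 UMIs per cell; bars are means over libraries and error bars the SD, for the 4 endothelial classes and for haematopoietic cells (6 libraries with at least 20 such cells). The highest bar is sinusoidal for *Ctgf* (12.9%), type R for *Cyr61* (15.5%) and *Amotl2* (8.47%), metaphyseal for *Wisp1* (2.40%) and arterial for *Nov* (1.58%).

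*Ctgf* in sinusoidal ECs was higher at both 3 and 75 weeks than at 12 weeks. Its level was 80.4 and 86.7 CPM in the 2 adult libraries, 239.5 and 277 in the juvenile and 558 and 561 in the aged libraries, so the 3 ages did not overlap. The juvenile level was 3.13 times the adult level (log2 fold change 1.65 ± 0.06, adjusted p = 6.78e-13) and the aged level 6.26 times (2.65 ± 0.07, adjusted p = 9.45e-17), a rise that 362 of 14213 genes (2.55%) matched or passed in that class. Both calls held in every alternative in which they could be tested. The antisense gene *Gm15270*, scaled by plain totals, had 9.58 and 9.91 CPM in the juvenile, 6.36 and 6.62 in the adult and 5.57 and 3.80 in the aged sinusoidal sums, so it was higher with *Ctgf* at 3 weeks and lower at 75 weeks. Its share of the juvenile *Ctgf* UMIs cannot be told apart without the strand setting.

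Single cells carried this difference as more UMIs per cell. Of 5340 adult sinusoidal cells, 849 (15.9%) had a *Ctgf* UMI, 45 (0.843%) had at least 5 and the highest cell had 15. Of 4934 juvenile cells, 1642 (33.3%) had a UMI, 341 (6.91%) at least 5 and the highest cell 29. Of 1150 aged cells, 542 (47.1%) had a UMI, 293 (25.5%) had at least 5 and the highest cell had 92. The aged cells were deeper, but at 1000 UMIs per cell the shares with a UMI were still 28.7% and 28.1% in the aged, 14.7% and 16.3% in the juvenile and 5.46% and 6.64% in the adult libraries.

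The age effect on *Ctgf* differed in size between classes, and in arterial ECs in direction. Metaphyseal ECs moved the same way as sinusoidal ones. In metaphyseal ECs the level was 79.1 and 61.4 CPM in juvenile, 37.9 and 36.1 in adult and 51.8 and 62.1 in aged libraries, again without overlap between adult and the other ages. The log2 fold change was 0.92 ± 0.15 at 3 weeks (adjusted p = 0.000138) and 0.60 ± 0.16 at 75 weeks (adjusted p = 0.00349). The second was lost without aged replicate 2 (0.44, adjusted p = 0.0648), with thinned cells (0.89, adjusted p = 0.0816) and without the cells richer in immediate early UMIs (0.23, adjusted p = 0.334). Of all genes tested in metaphyseal ECs, 4.22% rose at least as far as *Ctgf* at 3 weeks and 25.4% at 75 weeks. In arterial ECs the level was lower in aged libraries, 5.82 and 10.0 CPM, than in adult ones, 29.04 and 15.6 (-1.502 ± 0.37, adjusted p = 0.00225), but without adult replicate 1 this was -0.98 and did not pass (adjusted p = 0.114), nor did it without the cells richer in immediate early UMIs (adjusted p = 0.145). A test of the difference between classes gave adjusted p = 2.87e-14 for the aged and 0.000147 for the juvenile contrast, the latter 0.0863 without adult replicate 1 and 0.0652 without the cells richer in immediate early UMIs. In type R ECs juvenile *Ctgf* rested on 11 and 3 UMIs, and neither age passed, though both were called with wide marker panels.

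**Figure D3:**
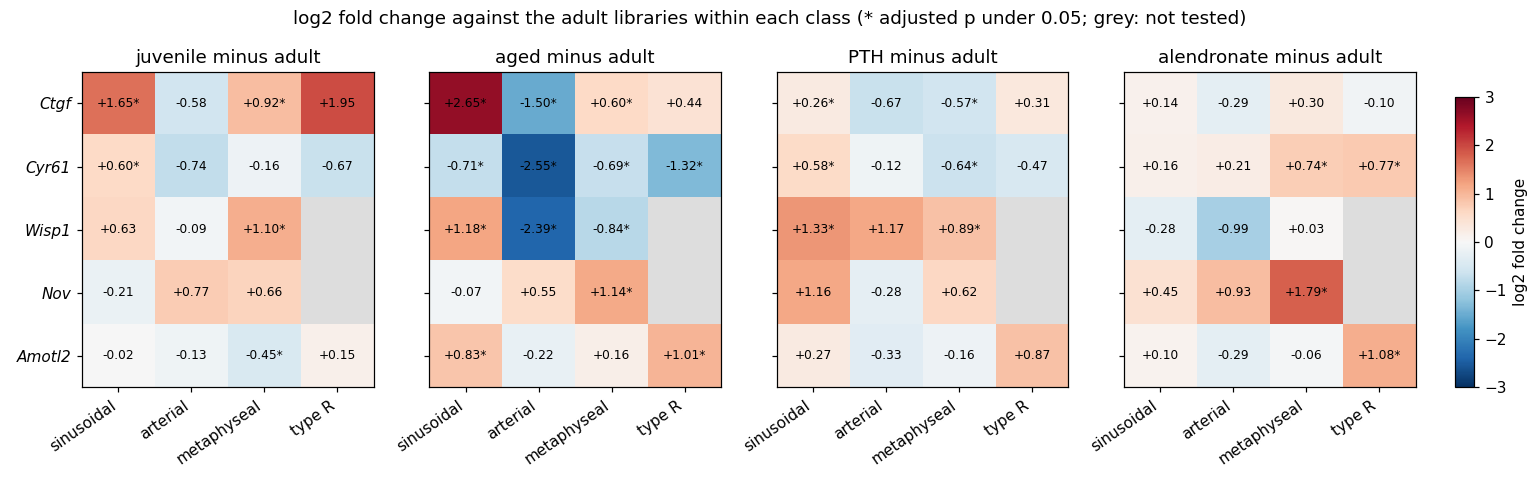
Log2 fold change of each gene (rows) in each class (columns) against adult mice of 12 weeks, 1 panel per group, from the edgeR fits; red is higher and blue lower, a star marks an adjusted p under 0.05 and grey marks a gene not tested. *Ctgf* is 2.65 in aged sinusoidal and -1.502 in aged arterial ECs, and *Cyr61* is below 0 in the aged sums of all 4 classes.

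*Cyr61* was called lower in aged ECs of all 4 classes, but only the arterial and type R calls were stable. Type R ECs had 95.4 and 95.6 CPM in the aged against 285 and 199 in the adult libraries (log2 fold change -1.32 ± 0.19, adjusted p = 3.63e-05), and arterial ECs 7.38 and 24.1 against 67.4 and 119.5 (-2.55 ± 0.30, adjusted p = 6.56e-07). Neither pair overlapped with its adult libraries, and both calls held in every alternative in which they could be tested. In arterial ECs 85 of 10939 genes, or 0.777%, fell at least as far. In sinusoidal ECs the aged level was 37.6 and 30.1 CPM against 45.3 and 58.5 (-0.71 ± 0.15, adjusted p = 0.00049), but -0.16 (adjusted p = 0.665) with cells thinned to 1000 UMIs and -0.22 (adjusted p = 0.222) without the cells richer in immediate early UMIs. In metaphyseal ECs 1 of the aged libraries (27.6 CPM) reached the lower adult value (26.9), and the call (-0.69 ± 0.22, adjusted p = 0.012) was lost without adult replicate 2 (-0.32, adjusted p = 0.256), without aged replicate 2 (-0.40, adjusted p = 0.172), with thinned cells (-0.74, adjusted p = 0.312) and with likely doublets left out (-0.09, adjusted p = 0.824). The setting without likely doublets kept 105 of 414 and 110 of 450 aged metaphyseal cells. Of all genes tested at 75 weeks, 24.7% fell at least as far as *Cyr61* in sinusoidal, 19.9% in metaphyseal and 4.48% in type R ECs. Juvenile sinusoidal ECs had more *Cyr61*, 77.2 and 78.4 CPM (0.60 ± 0.12, adjusted p = 0.00085). The classes differed in the contrast at 75 weeks (adjusted p = 9.28e-05) and at 3 weeks (0.00187, and 0.13 without juvenile replicate 2). The first was 0.186 with thinned cells, the second 0.322 with thinned cells and 0.979 without the cells richer in immediate early UMIs.

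Mural markers moved in the same contrast. Their 7 genes added up to 14.4 and 20.5 CPM in aged arterial ECs, with 1 to 2 genes at 0, against 277 and 629 in adult and 114.6 to 383 in the other groups. In type R ECs they added up to 17.0 and 27.0 CPM in aged, 65.7 and 917.5 in adult and 19.2 to 217 in the other groups. All 5 mural genes tested in arterial and all 3 in type R ECs fell, where 51.5% and 33.6% of all genes were called in either direction. Their part in the falls of *Cyr61* and *Ctgf* was not tested.

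*Amotl2* was higher in the aged libraries in sinusoidal ECs, 80.2 and 76.2 CPM against 42.4 and 39.8 in adult (log2 fold change 0.83 ± 0.09, adjusted p = 1.81e-07). This call held in every alternative in which it could be tested. In type R ECs aged libraries had 125 and 116 CPM against 61.3 and 60.8 (1.01 ± 0.24, adjusted p = 0.00351). Of all genes tested in that contrast, 18.8% rose at least as far in sinusoidal and 17.7% in type R ECs. The type R call was lost without adult replicate 1 (1.00, adjusted p = 0.0677), and it shrank to 0.25 without the cells richer in immediate early UMIs. Aged arterial ECs had 48.9 and 52.6 CPM against 60.3 and 58.8 (-0.22, 95% interval -0.52 to 0.081) and aged metaphyseal ECs 48.8 and 47.6 against 43.7 and 40.6 (0.16, -0.063 to 0.39), and neither passed. The difference between classes did (adjusted p = 2.03e-07). Juvenile metaphyseal ECs had less, 29.99 and 32.2 CPM (-0.45 ± 0.11, adjusted p = 0.0055). This call was lost without juvenile replicate 1 (-0.39) or adult replicate 1 (-0.39). It was also lost by DESeq2 (-0.43, adjusted p = 0.1), with thinned cells (-0.49, 0.365) and with likely doublets left out (-0.23, 0.349).

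*Wisp1* in metaphyseal ECs was graded over the 3 ages. It had 43.9 and 42.8 CPM in juvenile, 19.8 and 20.7 in adult and 12.0 and 11.03 in aged libraries, with no overlap. The juvenile level was 2.14 times (log2 fold change 1.095 ± 0.15, adjusted p = 2.99e-05) and the aged level 0.559 times the adult level (-0.84 ± 0.20, adjusted p = 0.00136). Of all genes tested there, 3.11% rose at least as far at 3 weeks and 14.1% fell at least as far at 75 weeks. With cells thinned to 1000 UMIs the directions of *Wisp1* stayed, but neither change passed (adjusted p = 0.112 and 0.0818). Whether the content of the metaphyseal class changed with age was not tested. In sinusoidal ECs the direction at 75 weeks was the opposite, 3.5 and 4.6 CPM against 1.8 and 1.5 (1.18 ± 0.37, adjusted p = 0.00876). The classes differed (adjusted p = 0.000641, but 0.642 with thinned cells and 0.185 with likely doublets left out). The sinusoidal change did not pass by DESeq2 (adjusted p = 0.0522), with likely doublets left out (0.161) or without the cells richer in immediate early UMIs (0.0877). The sinusoidal call was lost without aged replicate 2 (0.99, adjusted p = 0.0857) or adult replicate 2 (1.04, 0.0502), and the arterial call at 75 weeks (-2.39 ± 0.76, adjusted p = 0.013) without adult replicate 2 (-1.42, 0.289) or aged replicate 2 (-1.86, 0.102).

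*Nov* was called at 75 weeks in metaphyseal ECs, 6.0 and 5.2 CPM in aged against 2.4 and 2.6 in adult libraries (log2 fold change 1.14 ± 0.44, adjusted p = 0.0332). Of all genes tested there, 10.5% rose at least as far. The groups did not overlap, but the call was lost without either adult or either aged library (adjusted p = 0.0679 to 0.132), by DESeq2, with the stricter class rule and with likely doublets left out (0.0984 to 0.422). With wide marker panels *Nov* was called at 75 weeks in sinusoidal and arterial ECs as well, and without aged replicate 2 in arterial ECs. No difference between classes was detected for the aged contrast (adjusted p = 0.598). Blood cell RNA differed between the ages too: the 6 erythroid markers added up to 9767 CPM in aged replicate 2 and 266 in aged replicate 1 of metaphyseal ECs against 90.1 to 2678 in the other groups, and the 8 haematopoietic markers to 617 CPM in aged replicate 1 against 4.88 to 239 in the other groups. The haematopoietic list reached 744 and 299 CPM in aged type R ECs against 0 to 161 in the other groups, and 568 in aged replicate 1 of arterial ECs against 5.94 to 159.6. In sinusoidal ECs it was higher in the adult sums, 255 and 541 CPM, than in the aged (19.7 and 62.0) and juvenile ones (57.4 and 24.6), with *Elane* at -6.56 in the aged contrast (adjusted p = 8.3e-07). Their part in the results was not tested.

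At 3 against 12 weeks the test called 2 of 5 members in sinusoidal ECs (35% of all genes), 0 of 5 in arterial (10.6%), 3 of 5 in metaphyseal (26%) and 0 of the 3 testable members in type R ECs (2.3%). At 75 weeks it called 4 of 5 in sinusoidal (66.5% of all genes), 3 of 5 in arterial (51.5%), 4 of 5 in metaphyseal (60.3%) and 2 of 3 in type R ECs (33.6%), so the counts of members called lie near those of all genes. What the members add are sizes and directions, and several of the sizes were common among all genes, as given above. The difference between classes was called for 2 of 5 members at 3 weeks (7.22% of 14673 genes) and for 4 of 5 at 75 weeks (15.4%). Beside the counts of 0 from edgeR, an unadjusted p under 0.05 was reached by 1 member in juvenile arterial and 2 in juvenile type R ECs, and DESeq2's Wald test called 0 of the members that edgeR had not called.

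After PTH, the lowest adjusted p among the members belonged to *Wisp1* in metaphyseal ECs. It had 34.2 and 39.8 CPM in the PTH libraries against 19.8 and 20.7 in the untreated ones, without overlap. The level was 1.85 times the untreated level (log2 fold change 0.89 ± 0.15, adjusted p = 0.000532), 355 of 12478 genes (2.85%) rose at least as far, and the call held in 21 of 22 alternatives (the exception was thinning, adjusted p = 0.251). *Wisp1* was also higher in sinusoidal ECs, 4.0 and 4.3 CPM against 1.8 and 1.5 (1.33 ± 0.37, adjusted p = 0.03), and in arterial ECs 12.5 and 8.6 CPM stood against 2.2 and 6.9 (1.17 ± 0.47, adjusted p = 0.211). No difference between classes was detected (adjusted p = 0.953).

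The other PTH calls were smaller. In sinusoidal ECs 16.8% of all genes rose at least as far as *Ctgf* and 7.3% as far as *Cyr61*. In metaphyseal ECs 5.9% fell at least as far as *Ctgf* and 4.72% as far as *Cyr61*. *Ctgf* was higher in sinusoidal ECs, 104 and 97.6 against 80.4 and 86.7 CPM (log2 fold change 0.26 ± 0.07, adjusted p = 0.0313), and lower in metaphyseal ECs, 29.8 and 22.1 against 37.9 and 36.1 (-0.57 ± 0.16, adjusted p = 0.0308). *Cyr61* had 95.6 and 66.6 CPM against 45.3 and 58.5 in sinusoidal ECs (0.58 ± 0.14, adjusted p = 0.0114) and 22.7 in both libraries against 26.9 and 44.2 in metaphyseal ECs (-0.64 ± 0.20, adjusted p = 0.0473). No pair of groups overlapped, and the difference between classes passed for *Ctgf* (adjusted p = 0.012), *Cyr61* (0.00665) and *Amotl2* (0.0139). Each of these 3 depended on single libraries: *Ctgf* failed without adult replicate 1 or PTH replicate 2, *Cyr61* without adult replicate 2 or PTH replicate 1, and *Amotl2* without either adult library or PTH replicate 1, with adjusted p from 0.0707 to 0.476. All 3 failed without the cells richer in immediate early UMIs, with adjusted p of 0.412, 1 and 0.921. The calls within classes also rest on single libraries: *Ctgf* and *Wisp1* in sinusoidal ECs failed without adult replicate 1 or either PTH library, *Wisp1* also without adult replicate 2, *Cyr61* in sinusoidal ECs without adult replicate 1 or PTH replicate 1, *Ctgf* in metaphyseal ECs without either adult library or PTH replicate 2, and *Cyr61* in metaphyseal ECs without any one of 7 libraries (adjusted p = 0.0511 to 0.646 for this gene).

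The sinusoidal PTH sums carried osteoblast RNA. The 10 mesenchymal and osteoblast markers added up to 749.8 and 1529 CPM there, against 28.0 to 94.3 in the other groups, and at most 1 of the 10 was at 0. With the cells that had a UMI of *Col1a1*, *Col1a2* or *Bglap* left out, an alternative added after the data were seen, the *Ctgf* and *Cyr61* calls remained and *Wisp1* in sinusoidal ECs was 1.22 (adjusted p = 0.0976). In metaphyseal ECs the same list reached 37.1 to 37.7 CPM after PTH and 18.3 to 46.2 in the other groups. In the PTH contrast edgeR called 3 of 5 members in sinusoidal ECs (8.04% of all genes were called), 0 of 5 in arterial (4.54%, with 2 members at an unadjusted p under 0.05) and 3 of 5 in metaphyseal ECs (9.87%). Type R ECs rest on 1 PTH library, where *Amotl2* had 113 CPM (log2 fold change 0.87). The difference between classes was called for 3 of 5 members (3.03% of all genes).

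After alendronate, *Cyr61* and *Amotl2* were higher in type R ECs. *Cyr61* had 472 and 426 CPM against 285 and 199 (log2 fold change 0.77 ± 0.17, adjusted p = 0.0297). *Amotl2* had 148 and 129 against 61.3 and 60.8 (1.08 ± 0.24, adjusted p = 0.0338), with no overlap for either gene. With no filter on low counts neither passed (adjusted p = 0.172 and 0.156). The *Amotl2* call held in 13 of 22 alternatives, and its adult values rest on 14 and 11 UMIs. It was lost by DESeq2 (adjusted p = 0.0709), with the stricter class rule (1.42, 0.106) and with wide marker panels (0.78, 0.105). A UMI of *Cyr61* was present in 273 of 678 type R cells (40.3%) after alendronate and in 55 of 209 (26.3%) without treatment; at 1000 UMIs per cell the shares per library were 27.4% and 24.4% against 17.8% and 19.3%. In metaphyseal ECs *Cyr61* had 57.0 and 61.0 CPM against 26.9 and 44.2 (0.74 ± 0.19, adjusted p = 0.0144, and 0.0666 with wide marker panels). *Nov* had 9.7 and 7.6 against 2.4 and 2.6 (1.79 ± 0.40, adjusted p = 0.00596, and 0.191 without the cells richer in immediate early UMIs). Again the groups did not overlap, but without alendronate replicate 1 none of these 4 calls passed (adjusted p = 0.0667 to 0.314), without alendronate replicate 2 or adult replicate 1 1 of 4 did, and without adult replicate 2 2 of 4.

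In sinusoidal ECs edgeR called 0 of 5 members after alendronate (0 at an unadjusted p under 0.05, 0 by DESeq2, against 14% of all genes), although *Ctgf* and *Cyr61* were called there with likely doublets left out. The 95% interval of *Ctgf* was -0.0027 to 0.28 and that of *Amotl2* -0.088 to 0.29 on the log2 scale, so changes of the size seen in aged sinusoidal ECs lay outside. In arterial ECs 0 of 5 passed (3.72% of all genes, with *Nov* at 0.93 and unadjusted p = 0.0443), in metaphyseal ECs 2 of 5 (11.5%) and in type R ECs 2 of 3 (1.06%). *Nov* in arterial ECs was called with no filter on low counts, with wide marker panels and with only the 2 groups compared. A difference between classes was called for 1 of 5 members, *Amotl2* (adjusted p = 0.00557; 2.04% of all genes). It was lost without adult replicate 1 (0.259) or adult replicate 2 (0.142), with thinned cells (0.164) and without the cells richer in immediate early UMIs (1).

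Immediate early genes moved with several of these values. The summed level of 18 such genes, *Fos*, *Jun* and *Klf2* among them and none of the 5 members, was 12978 and 12382 CPM in type R ECs after alendronate against 5399 and 5964 without, 5234 and 5550 against 3934 and 3975 in metaphyseal ECs, and 4999 and 5536 against 4192 and 4325 in sinusoidal ECs after PTH. In aged sinusoidal ECs it was 1775 and 1803 CPM and in juvenile ones 2706 and 2743, below adult. Of 17 immediate early genes tested in sinusoidal ECs, 13 fell and 1 rose at 75 weeks and 12 fell at 3 weeks, whereas 10 rose after PTH. In type R ECs 9 of 16 rose after alendronate. The shares of all genes called in these contrasts were 66.5%, 35%, 8.04% and 1.06%. *Klf2*, 1 of the 18, also differed between classes. It was higher in arterial (2.705, adjusted p = 7.61e-19) and type R (2.49, adjusted p = 6.7e-17) than in sinusoidal ECs by edgeR. In type R ECs *Klf2* rose by 1.57 after alendronate (adjusted p = 2.92e-08), and it averaged 2588 CPM there over the libraries of all groups, a large part of the sum. *Fos* and *Fosb* did not follow its class order. *Fos* averaged 186 CPM in arterial and 521 in sinusoidal ECs, and *Fosb* was lower in arterial than in sinusoidal ECs by edgeR (-2.198, adjusted p = 1.46e-14).

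Stress genes were higher in the type R sums after alendronate as well. The 10 genes of that list added up to 4320 and 4242 CPM against 3098 and 2824 in the adult and 2423 to 3389 CPM in all other groups, and 3 of 8 tested rose, with the heat shock gene *Hspa1a* at 3.70 (adjusted p = 6.59e-07). Their part in the rises of *Cyr61* and *Amotl2* was not tested.

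**Figure D4:**
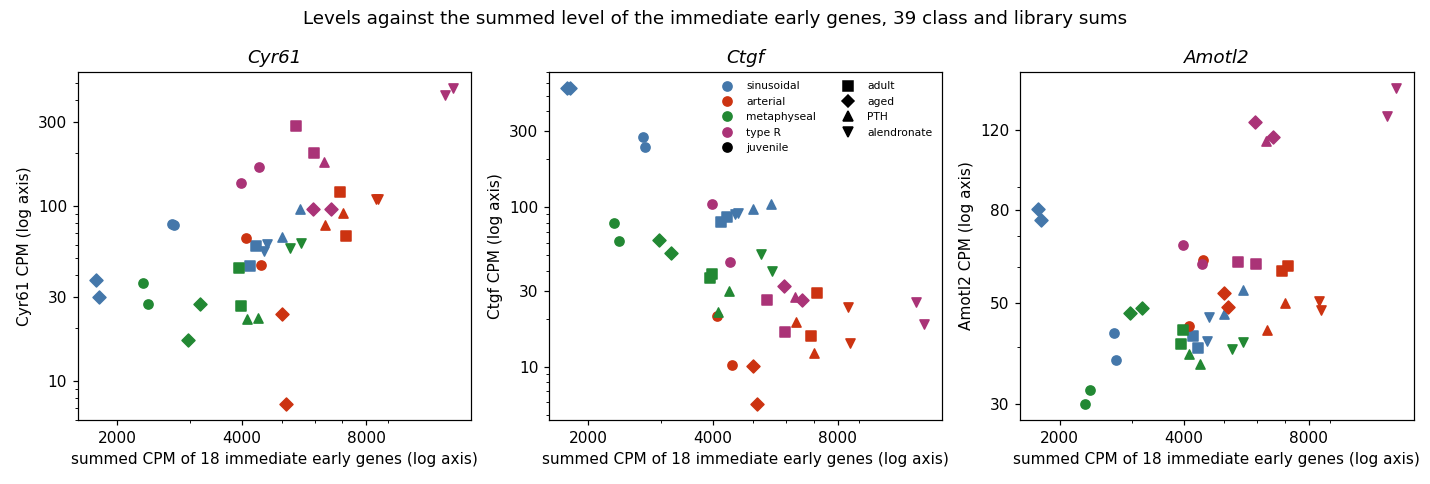
Level of *Cyr61*, *Ctgf* and *Amotl2* (CPM, log axis) against the summed level of 18 immediate early genes (CPM, log axis) in the 39 sums of a class and library; colours mark classes and symbols groups. The 2 type R sums after alendronate lie at the upper right for *Cyr61*, and the 2 aged sinusoidal sums combine the lowest immediate early level with 558 and 561 CPM of *Ctgf*.

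When the ECs whose share of immediate early UMIs was above the median of their library were left out, whatever their class, the members split. *Ctgf* in aged and juvenile sinusoidal and juvenile metaphyseal ECs, and *Amotl2* in aged sinusoidal and juvenile metaphyseal ECs, were still called. So was *Cyr61* in aged arterial, aged metaphyseal and juvenile sinusoidal ECs, and in metaphyseal ECs after alendronate. *Wisp1* was still called in metaphyseal ECs, juvenile, aged and after PTH. The contrasts of *Cyr61* between groups within type R ECs could not be tested there. *Cyr61* in metaphyseal ECs after PTH turned to 0.02 (adjusted p = 0.997), *Amotl2* in type R ECs after alendronate to -0.27 (adjusted p = 0.972), and *Cyr61* in sinusoidal ECs after PTH shrank to 0.11 (adjusted p = 0.844). This setting holds 18136 cells and 17333 UMIs of the members in place of 35827 and 34843, and 6 type R sums in place of 9. The cut left unlike shares of the classes. In adult replicate 1 it kept 1595 of 2705 sinusoidal, 580 of 1165 metaphyseal, 74 of 463 arterial and 24 of 115 type R cells. Of the adult type R sums only replicate 1, with 24 cells, was left (replicate 2 had 16), so both type R values of *Amotl2* rest on 1 adult library.

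Detection in the same cells, at 1000 UMIs each, is given as a description over libraries with at least 20 cells on both sides. *Cyr61* was found in 8.61% of the sinusoidal cells with a *Fos* UMI and in 2.90% of those without, with the first share higher in 9 of 10 libraries (the exception was aged replicate 2). In metaphyseal cells the shares were 6.91% and 2.36% (9 of 9 libraries) and in arterial cells 11.3% and 5.90% (6 of 6). Type R cells had 30.3% and 24.8% (2 of 2, both after alendronate). Beside *Jun* the first share was higher in 9 of 10 sinusoidal, 9 of 10 arterial, 8 of 10 metaphyseal and 5 of 7 type R libraries. In the same order, *Egr1* gave 8 of 10, 2 of 4, 10 of 10 and 2 of 2. *Klf4* gave 8 of 10, 8 of 10, 6 of 10 and 5 of 6, with shares closer together, as 3.735% and 2.734% in metaphyseal cells. Beside the junction gene *Cdh5*, the shares of *Cyr61* were 4.03% and 4.24% in sinusoidal cells (higher in 4 of 10), 2.92% and 2.78% in metaphyseal (5 of 10), 5.64% and 4.86% in arterial (7 of 10) and 18.9% and 12.2% in type R cells (6 of 7), so in type R cells this comparison gene split *Cyr61* as well. *Ctgf* showed no such split by *Fos* in sinusoidal cells, 12.0% and 12.9% (higher in 5 of 10), but was found in 15.5% of the sinusoidal cells with *Cyr61* against 8.77% without (8 of 8) and in 12.3% against 3.24% of metaphyseal cells (7 of 7). In type R cells, where *Cyr61* was highest, the order was the other way, 1.30% against 1.59% (higher in 1 of 3), and in arterial cells the shares were 3.63% and 1.27% (4 of 5). *Amotl2* was found in 9.16% of the metaphyseal cells with *Cyr61* and in 3.88% without (6 of 7). Differences were smaller in sinusoidal (5.29% and 4.06%, 6 of 8) and type R cells (14.1% and 12.0%, 2 of 3), and arterial cells had 8.56% and 5.35% (4 of 5). Beside *Cdh5*, the shares of *Amotl2* were 5.42% and 3.91% in arterial (8 of 10) and 10.8% and 8.82% in type R cells (4 of 7). They were 4.92% and 5.18% in sinusoidal (5 of 10) and 4.11% and 3.90% in metaphyseal cells (7 of 10).

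Between classes, where 10.8% to 22.4% of all genes were called, the pathway around the members gave the following counts. Of 7 genes for YAP, TAZ and the TEAD factors, 6 were tested and 1 was called in 1 of the 6 class comparisons: *Wwtr1*, which encodes TAZ, had 241 ± 51.7 CPM in type R and 110 ± 21.7 in sinusoidal ECs (log2 fold change 1.08 ± 0.09, adjusted p = 3.79e-13). *Yap1* had means of 36.4 CPM in sinusoidal, 37.5 in arterial, 30.9 in metaphyseal and 38.5 in type R ECs. Of 13 Hippo kinases and regulators tested, at most 2 were called in any class comparison, near the share of all genes (22.4% for type R against sinusoidal ECs), with *Amotl1*, the angiomotin paralogue of *Amotl2*, lower in type R than in sinusoidal ECs (-1.38 ± 0.08, adjusted p = 5.01e-18), opposite to *Amotl2*. At 75 weeks 5 factors rose and 1 fell of 7 in sinusoidal ECs, 5 and 0 of 6 in arterial, 5 and 1 of 6 in metaphyseal and 3 and 0 of 6 in type R ECs, where 66.5%, 51.5%, 60.3% and 33.6% of all genes were called. *Tead1* rose by 1.34 ± 0.08 in sinusoidal (adjusted p = 6.25e-11) and 1.4997 ± 0.11 in metaphyseal ECs (adjusted p = 1.12e-09). Of the Hippo genes 8 of 13 rose in aged sinusoidal, 7 of 13 in arterial, 8 of 13 in metaphyseal and 4 of 10 in type R ECs and 0 fell. Of all genes, 4724 of 14213, 2810 of 10939, 3756 of 12478 and 1286 of 7172 rose in these contrasts. After PTH edgeR called 2 of 6 factors in metaphyseal ECs (9.87% of all genes), and 0 of 7 in sinusoidal, 0 of 6 in arterial and 0 of 6 in type R ECs, with 2, 0 and 1 at an unadjusted p under 0.05. The shares of all genes there, 8.04%, 4.54% and 0.669%, are low enough that counts of 0 say nothing about the list.

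A longer list of 25 other YAP target genes did not follow 1 class. Of 19 tested between classes, 6 were higher and 5 lower in arterial than in sinusoidal ECs (median of the list 0.06), 8 and 3 in metaphyseal (0.27) and 6 and 4 in type R ECs (0.27). Of all genes 19.6%, 11.6% and 22.4% were called in these comparisons, with medians of -0.027, -0.011 and -0.06. *Tgfb2*, which encodes a TGFβ ligand, was 6.37 ± 0.17 higher in arterial than in sinusoidal ECs (adjusted p = 2.52e-27), *Igfbp3* 4.92 ± 0.17 (2.78e-24) and *Edn1*, for the vasoconstrictor endothelin, 4.47 ± 0.18 (1.83e-22), whereas the receptor kinase gene *Axl* had a log2 fold change of -3.59 ± 0.22 in type R against sinusoidal ECs (2.46e-16). *Ctgf* thus shared its highest class with *Axl* and not with the first 3. In aged ECs 7 of 20 rose and 7 fell in sinusoidal cells, 5 and 3 of 16 in arterial, 10 and 5 of 21 in metaphyseal and 4 and 3 of 11 in type R cells, again beside 66.5%, 51.5%, 60.3% and 33.6% of all genes. After PTH 6 rose and 1 fell of 20 in sinusoidal ECs and 7 and 1 of 21 in metaphyseal ECs, where 8.04% and 9.87% of all genes were called, and after alendronate 3 and 1 of 20 and 8 and 2 of 21 (14% and 11.5% of all genes).

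Among 12 genes for CCN receptors and partners, 9 were tested between classes. *Itga6*, an integrin subunit that CCN proteins can bind, had 401 ± 159.5 CPM in type R and 103 ± 42.8 in sinusoidal ECs (log2 fold change 1.99 ± 0.08, adjusted p = 2.73e-22). The proteoglycan gene *Sdc4* had 53.2 ± 8.81 CPM in sinusoidal ECs, where *Ctgf* was highest, and 3.74 ± 3.94 in type R ECs (-4.03 ± 0.41, adjusted p = 9.31e-11). At 75 weeks 6 of 11 receptors rose and 3 fell in sinusoidal ECs, 7 and 1 of 9 in arterial, 7 and 0 of 9 in metaphyseal and 3 and 0 of 6 in type R ECs, beside the same shares of all genes. *Notch1*, a receptor that NOV binds, rose by 1.54 ± 0.19 in arterial (adjusted p = 1.12e-06) and 1.099 ± 0.16 in metaphyseal ECs (9.75e-06). The 2 further CCN genes were scarce: *Wisp2* had 3.69 ± 1.20 CPM in sinusoidal and at most 0.947 in the other classes, and *Wisp3* 9 UMIs in all classes together.

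As a description over the 39 sums of 10 libraries, which share libraries and classes, the members did not vary as 1 group. Pearson's r of log2 CPM was 0.58 between *Cyr61* and *Amotl2*, -0.66 between *Wisp1* and *Amotl2*, -0.62 between *Cyr61* and *Wisp1* and -0.58 between *Ctgf* and *Nov*, and between -0.28 and 0.35 for the other pairs. The genes outside the group whose levels were most like each member, among those with a mean of at least 20 CPM, were *Nr2f2*, the venous transcription factor COUP-TFII (0.88), *Tgfbr3* (0.86), *Pde2a* (0.85), *Actn1* (0.85) and *Mylip* (0.83) for *Ctgf*. For *Cyr61* they were *Eif4a2* (0.83), *Tsfm* (0.82), *Prr13* (0.81), *Prps1* (0.81) and *Max* (0.80), and for *Amotl2* the caveolar gene *Sdpr* (0.85), *Casz1* (0.83), *Xdh* (0.83), *Tspan2* (0.83) and *Eepd1* (0.83). For *Wisp1* they were the mechanosensitive channel gene *Piezo2* (0.92), *Lrp4* (0.86), *Kcne3* (0.85), *Sipa1* (0.83) and *Ramp3* (0.82), the last a marker that set the metaphyseal class. For *Nov* they were *Synpo* (0.85), *Rnf152* (0.85), *Rtn4* (0.84), *Heg1* (0.83) and *Scube3* (0.81).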

How the data were processed

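UMI counts per gene and cell were deposited for 10 libraries without normalization. The authors assigned reads with UMI-tools 1.1.2, aligned them to mm10 with STAR 2.7.10a and counted them on genes with featureCounts 2.0.3. The annotation release, the strand setting and the 10x kit version per library are not given in the sources used here. Cells were filtered and classed as described above, and no doublets were removed. The counts of a class were summed per library (at least 20 cells), filtered with filterByExpr, scaled by TMM and tested with edgeR 4.0.16 in R 4.3.3 (glmQLFit, Benjamini-Hochberg over all genes tested), with the library as a block between classes and with 5 groups per fit within a class, where TMM was computed over that class. The difference between classes was tested with an F test of 3 degrees of freedom. Intervals of log2 fold changes are 95% t intervals with the test's own degrees of freedom. Mean shares of cells carry the SD over libraries, and the limit from the pooled haematopoietic cells covers counting error only. The precision of CPM is limited by 2 libraries per group and by the UMIs given. Results with DESeq2 1.42.0 and the other alternatives are given under the processing results. The stricter class rule asked for at least 3 UMIs of the class markers and at least 75% of the marker UMIs. Wide marker panels added *Rgs4* and *Gpr126* (sinusoidal), *Bmx* and *Sema3g* (arterial), *Piezo2* (metaphyseal) and *C1qtnf9* (type R). Likely doublets were ECs in the top 5% of their library by UMIs or with a UMI of *Ptprc*, *Hbb-bs* or *Pf4*. Python 3.11.15 with numpy 2.4.6, pandas 2.3.3 and scipy 1.17.1 was used for shares. The steps were tested on simulated data. The members and the gene lists were chosen with earlier results of these data known. From each further list, the text names at most 4 genes, called, of the greatest log2 fold change in size averaging 20 CPM or more, and for each member the 5 genes averaging 20 CPM or more that correlated most with it. *Gm15270*, *Wisp2*, *Wisp3* and the genes of the class, marker and co-detection checks were named outside this rule, after values were seen. Deviations of libraries that share a number correlated at -0.134 to 0.128 over 36 pairs, of which 2 were over 0.1, so the number does not pair them.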

Additional observations from a re-analysis of the deposited data

Results flagged for a closer look

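The change against the untreated 12-week group differed between the 4 endothelial classes by edgeR's F test for 10 of 20 combinations of member and contrast, where 7.22% of all genes were called at 3 weeks, 15.4% at 75 weeks, 3.03% after PTH and 2.04% after alendronate. At 3 weeks these were *Ctgf* (adjusted p = 0.000147) and *Cyr61* (0.00187). At 75 weeks they were *Ctgf* (2.87e-14), *Amotl2* (2.03e-07), *Cyr61* (9.28e-05) and *Wisp1* (0.000641). After PTH they were *Cyr61* (0.00665), *Ctgf* (0.012) and *Amotl2* (0.0139), and after alendronate *Amotl2* (0.00557). Of these, the calls at 75 weeks held when any 1 library was left out. At 3 weeks *Ctgf* was lost without adult replicate 1 (0.0863) and *Cyr61* without juvenile replicate 2 (0.13). After PTH each call was lost without 1 of 2 or more libraries (0.0707 to 0.476), and *Amotl2* after alendronate without adult replicate 1 (0.259) or 2 (0.142).

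The ECs without a class, which enter no comparison, had members above both adult libraries in some groups, by plain totals. *Ctgf* had 101.6 and 96.0 CPM in juvenile and 65.8 and 70.5 in aged libraries, against 48.0 and 36.2 in adult. *Cyr61* had 105.3 and 120.2 CPM after alendronate against 57.5 and 44.6. *Wisp1* had 6.12 and 4.94 CPM in aged, 9.19 and 6.22 in PTH and 2.52 and 4.47 in alendronate libraries. *Nov* had 34.2 and 63.9 CPM in aged, 30.6 and 24.4 in PTH and 13.8 and 22.8 in alendronate libraries, against 9.8 and 4.9 in adult. *Amotl2* had 55.0 and 62.9 CPM in aged and 41.4 and 41.2 in alendronate libraries. These differences were not tested.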

How the results depend on the processing

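The counts of members called were 20 of 30 between classes, 5 of 18 at 3 weeks, 13 of 18 at 75 weeks, 6 of 18 after PTH, 4 of 18 after alendronate and 10 of 20 for differences between classes. They stayed within 1.5 times under DESeq2 size factors, no filter on low counts, wide marker panels and likely doublets left out. DESeq2's Wald test called 2 and the stricter class rule 3 after PTH. With cells thinned to 1000 UMIs, 9 of the 18 tested between classes, 3 of 12 at 3 weeks, 5 of 12 at 75 weeks, 1 of 12 after PTH and 4 of 20 for differences between classes were called. With the cells richer in immediate early UMIs left out, 5 of 13 were called at 75 weeks, 1 of 13 after PTH, 1 of 13 after alendronate and 4 of 20 for differences between classes. Both of these settings hold fewer UMIs of the members, 4723 and 17333 in place of 34843. So does the setting with likely doublets left out, with 16631 UMIs and 21104 of 35827 cells. Leaving out 1 library gave 17 to 20 between classes, 5 in each case at 3 weeks, 9 to 13 at 75 weeks, 2 to 6 after PTH, 0 to 4 after alendronate and 6 to 11 for differences between classes. The lowest counts came without either PTH library or adult replicate 1 for PTH (2 each), without alendronate replicate 1 for alendronate (0) and without adult replicate 1 for differences between classes (6). A lone library left in a group was assumed to vary like the others.

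Directions turned in 3 of 1189 values: *Nov* in type R against arterial ECs was 0.26 with wide panels, and with the cells richer in immediate early UMIs left out *Cyr61* in metaphyseal ECs after PTH was 0.017 and *Amotl2* in type R ECs after alendronate -0.27. The cause was not tested. Of 58 called results, 22 held in all alternatives run. With the replicate number as a block, a pairing the data did not bear out, 5 members were called at 3 weeks, 13 at 75 weeks, 4 after PTH and 4 after alendronate. After seeing the data, both aged libraries were left out, which gave 21 calls between classes. Type R values rest on few UMIs, and 2 libraries of 1 pool limit every group contrast.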
